A study of Mus musculus with 35 samples.

Results

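The cytochrome P450 genes outside the Cyp4 family were followed in the small intestine of wild-type and PPARα-null mice given a single dose of a PPARα agonist. The members were the probesets whose single gene symbol begins with Cyp and a digit, leaving out the Cyp4 genes and Cyp51, which gave 59 genes on 78 probesets out of 18193 genes on 45037 probesets. Of these, 15 genes on 19 probesets had a mean level above 32 (log2 5) in at least 1 of the 8 groups and are called expressed, against 8626 genes on 15384 probesets in all. The male mice, 4 months old, were wild-type 129S1/SvImJ or PPARα-null 129S4/SvJae, and each of 35 arrays measured whole-tissue RNA of 1 mouse, taken from the full length of its small intestine. All mice had been kept on an olive oil diet and fasted, and tissue was collected 6 h after they received 400 µl by gavage. WY14643, a synthetic PPARα agonist, went to 4 wild-type and 4 PPARα-null mice as a 0.1% suspension in 0.5% carboxymethyl cellulose. The fatty acids eicosapentaenoic acid (EPA, 5 and 5 mice), docosahexaenoic acid (DHA, 5 and 4) and oleic acid (OA, 4 and 4) were given as neat triacylglycerols, so a difference between WY14643 and an oil is also one between a carboxymethyl cellulose suspension and a load of fat. The substrains differed between the genotypes, so that strain and genotype cannot be told apart, and untreated mice were not analysed here.

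Cytochrome P450 enzymes are haem proteins of the endoplasmic reticulum and the mitochondria that insert an oxygen atom into a substrate, with electrons passed on by a reductase. Families 1 to 3 oxidise drugs and food components, and several members of subfamilies 2C and 2J also turn arachidonic acid into epoxides and hydroxy acids, which epoxide hydrolases break down. Other families make or clear bile acids, steroid hormones and vitamins, and in the intestine the enzymes of subfamily 3A contribute to first-pass metabolism. PPARα is a nuclear receptor that binds DNA with RXR at a direct repeat of AGGTCA spaced by 1 base, called DR1, and its best known P450 targets are Cyp4a genes, which were not members.

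Several facts of the arrays bear on what follows. The probeset shared by Cyp4a10 and Cyp4a31, PPARα targets, read between 8.15 and 12.75 (log2) on the wild-type arrays other than EPA replicate 5, where it read 1.81. It read between 1.36 and 2.50 on the PPARα-null arrays other than EPA replicate 5 (9.91) and OA replicate 1 (10.61). These 3 arrays go against their genotype labels, and were left out of a second fit, whose values are given beside the results of the groups that hold them. All 8 enterocyte markers found by a single gene symbol were expressed, with a summed linear level between 103100 and 124000 on every array. Single markers did differ between groups, as given with the other markers at the end. Of the hepatocyte markers 1 of 4 was expressed, and Alb, Fga and Ahsg were not. In tissue RNA, fewer cells of a type and less RNA per cell cannot be told apart.

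Promoters of 3 genes are shown, since the genotype difference was largest for Cyp2c65, the difference between oils for Cyp2c29, and the difference between WY14643 and OA in PPARα-null mice for Cyp2j9. Each is the 300 bases from 250 before to 50 after the start of the gene, 5′ to 3′ on the strand of the gene, from RefSeq on GRCm38.p6, with capitals for AGGTCA or TATAAA, neither of which occurs in that of Cyp2j9. Cyp2c65 lies at chr19:39060756-39061055 on the plus strand, Cyp2c29 at chr19:39286835-39287134 on the plus strand and Cyp2j9 at chr4:96591436-96591735 on the minus strand.
Cyp2c65: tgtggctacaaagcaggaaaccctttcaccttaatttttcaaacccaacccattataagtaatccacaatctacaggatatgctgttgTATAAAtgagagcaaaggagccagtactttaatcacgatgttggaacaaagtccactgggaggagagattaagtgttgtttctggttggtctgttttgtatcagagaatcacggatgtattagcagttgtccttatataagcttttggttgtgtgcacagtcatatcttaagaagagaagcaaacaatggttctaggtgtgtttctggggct
Cyp2c29: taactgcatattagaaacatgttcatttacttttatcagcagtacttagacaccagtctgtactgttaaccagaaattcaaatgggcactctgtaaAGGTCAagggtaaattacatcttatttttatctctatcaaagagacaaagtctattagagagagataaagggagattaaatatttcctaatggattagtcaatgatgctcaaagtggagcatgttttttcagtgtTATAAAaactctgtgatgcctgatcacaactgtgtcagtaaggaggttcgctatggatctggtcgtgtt
Cyp2j9: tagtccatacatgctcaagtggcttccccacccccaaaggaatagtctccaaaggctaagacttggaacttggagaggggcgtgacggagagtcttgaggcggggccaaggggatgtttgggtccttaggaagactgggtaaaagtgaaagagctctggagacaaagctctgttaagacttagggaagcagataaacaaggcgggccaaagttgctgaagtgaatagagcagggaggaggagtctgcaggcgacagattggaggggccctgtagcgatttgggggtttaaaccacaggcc

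Of the 15 expressed genes 13 had a promoter in the RefSeq table, and each was searched for AGGTCA, for DR1 (AGGTCA, any 1 base, AGGTCA) and for TATAAA on both strands. AGGTCA was found in 3 of 13 (Cyp2c29, Cyp3a11 and Cyp3a25), against 16.3% of all 32851 promoters of that length. Its first base lay at -154 from the start in Cyp2c29, at -162 in Cyp3a11, and at -176 and -155 in Cyp3a25. The full DR1 repeat, which contains AGGTCA, was found in 0 of 13, against 0.0396% of all promoters. TATAAA was found in 4 of 13 (Cyp2c29, Cyp2c65, Cyp2d26 and Cyp3a11), against 13.6% of all. These are matches of letters within 300 bases and say nothing of other positions. Cyp2c65 and Cyp2c29 share chromosome 19 with Cyp2c68 and Cyp2c23, the 3 expressed Cyp3a genes lie on chromosome 5, and Cyp2j6 and Cyp2j9 lie on chromosome 4.

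**Figure D1:**
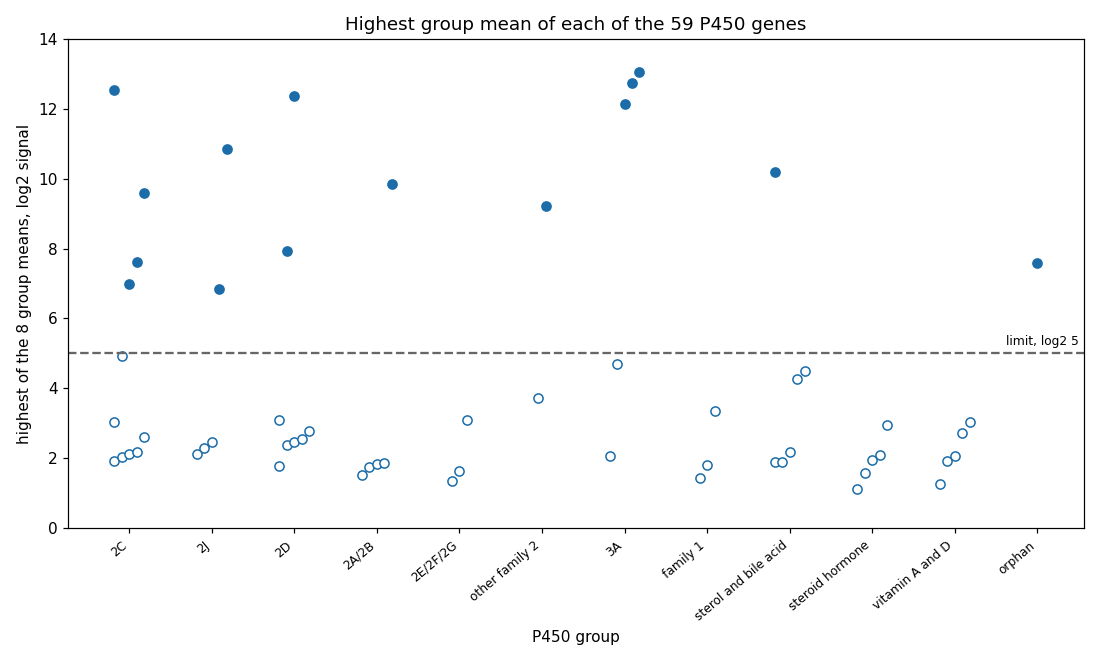
The highest of the 8 group means (log2 level) of each of the 59 genes, by family group, with filled points for genes with a group mean above the limit of log2 5 (dashed line) and open points for the others. Of the 15 expressed genes 7 sit in subfamilies 2C and 3A, while the steroid hormone, vitamin, family 1 and 2E/2F/2G groups lie wholly under the limit.

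Subfamilies 2C and 3A held 7 of the 15 expressed genes. In subfamily 2C, 4 of 11 genes were expressed (Cyp2c23, Cyp2c29, Cyp2c65 and Cyp2c68). In subfamily 3A, the main drug and steroid oxidising group, 3 of 5 were (Cyp3a11, Cyp3a13 and Cyp3a25). Subfamily 2J had 2 of 5 (Cyp2j6 and Cyp2j9) and subfamily 2D 2 of 8 (Cyp2d22, related to human CYP2D6, and Cyp2d26). Cyp2b10, Cyp2s1, Cyp20a1 and Cyp27a1 were the other expressed genes. Cyp27a1, the mitochondrial sterol 27-hydroxylase, was the only expressed gene of the 6 for sterols and bile acids, and Cyp7a1 and Cyp8b1, which act in hepatic bile acid synthesis, were not expressed. None of the 3 family 1 genes was expressed, with the highest group means from 1.44 to 3.36 (log2). The same held for the 5 steroid hormone genes (1.13 to 2.94) and the 5 genes that act on vitamins A and D (1.25 to 3.04).

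Over the 44 genes that were not expressed, the highest group mean was under log2 2 for 17, under 3 for 34 and under 4 for 40. Nearest to the limit were Cyp2c55 (4.93, wild-type EPA), Cyp3a44 (4.68, PPARα-null WY14643), Cyp7b1 (4.49, wild-type EPA) and Cyp39a1 (4.27, PPARα-null OA). The highest value on any array was 6.21, in Cyp2c55, and 3 of the 44 genes passed the limit on any array. Just inside the limit, Cyp2c29 and Cyp2j9 passed in some groups and not in others, so a difference of theirs is partly what made them pass.

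**Figure D2:**
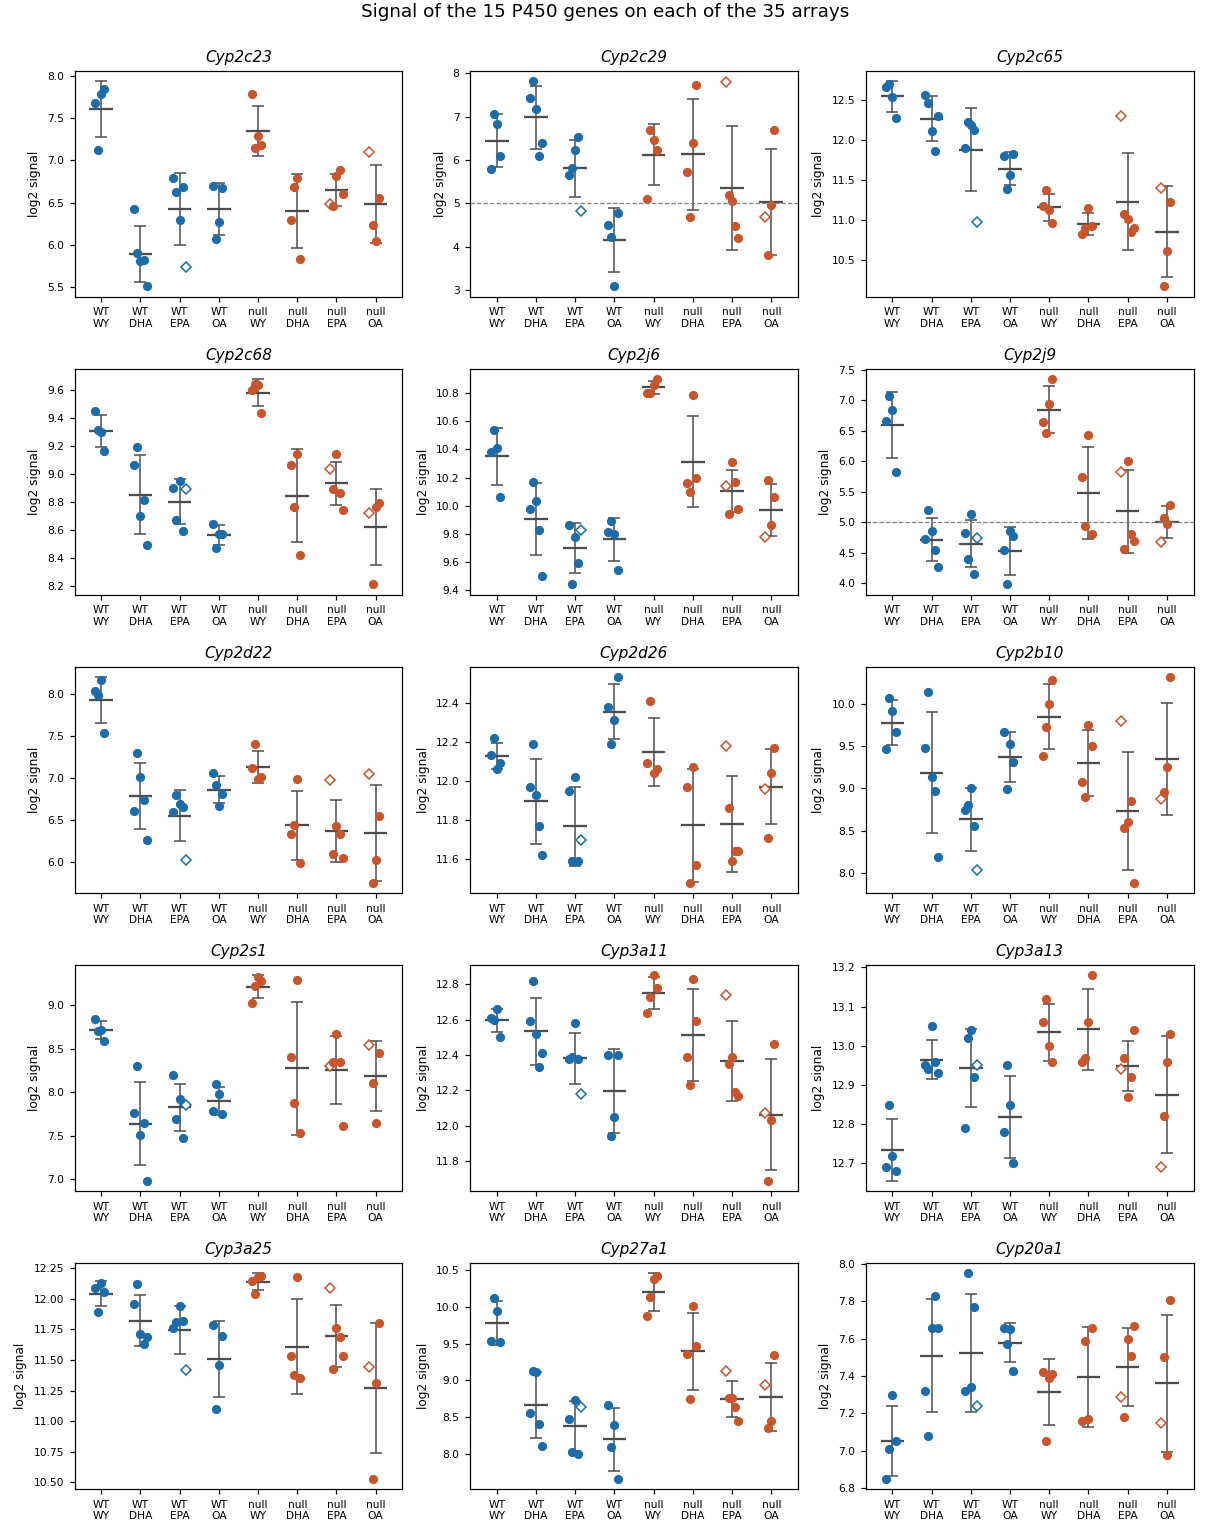
Log2 level of the 15 expressed genes on each of the 35 arrays by group, with bars for the group mean, whiskers for the SD, open diamonds for the 3 arrays that go against their genotype label, and a dashed line at the limit of log2 5. For Cyp2c65 the wild-type WY14643 arrays (12.28 to 12.71) sit above all PPARα-null WY14643 arrays (10.97 to 11.38), and for Cyp2j9 the WY14643 arrays of both genotypes (5.83 to 7.35) stand above all OA arrays (3.98 to 5.29).

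The first comparison was between wild-type and PPARα-null mice under each agonist, in which the receptor and the substrain differ together. After WY14643, 4 of the 15 genes were called (limma, adjusted p under 0.05 over all expressed probesets), 2 higher in wild-type mice (Cyp2c65 and Cyp2d22) and 2 lower (Cyp2j6 and Cyp3a13). Over all expressed genes 4.19% were higher and 3.36% lower. The median difference of the 15 genes was -0.15 on the log2 scale and that of all expressed genes -0.06. On the called probesets the groups of these 4 genes did not overlap. Those of Cyp2s1, which was not called, did not overlap either. The share of all expressed genes without overlap is not given here.

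Cyp2c65, a gut-enriched member of subfamily 2C that oxidises arachidonic acid, had the largest difference. After WY14643 its log2 levels were 12.67, 12.71, 12.54 and 12.28 in wild-type mice. In PPARα-null mice they were 11.18, 11.38, 11.13 and 10.97. All wild-type values lay above all PPARα-null values, by 1.39 (SE 0.26) or 2.61-fold, with a limma adjusted p of 0.000321. The levels were also high in wild-type mice after DHA, at 12.57, 12.47, 12.12, 11.87 and 12.31. In PPARα-null mice after DHA they were 10.83, 10.90, 11.15 and 10.93. These groups did not overlap either, and the difference was 1.31 (SE 0.24) or 2.49-fold, with a limma adjusted p of 0.00143. Cyp2c65 was the only expressed P450 gene called after DHA, where 4.42% of all expressed genes were higher and 3.58% lower in wild-type mice.

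After EPA and OA the call for Cyp2c65 turned on the 3 arrays. The paper also measured this gene by quantitative PCR and reports it higher in wild-type mice after each agonist, EPA and OA included. After EPA the wild-type levels were 11.90, 12.23, 12.19, 12.13 and, on replicate 5, 10.98. The PPARα-null levels were 12.31 on replicate 5 and 11.08, 11.02, 10.85 and 10.90 on the others. On each of these arrays the level lay within the range of the other genotype or next to it. With all arrays the difference was 0.65 (95% interval 0.19 to 1.12, limma adjusted p = 0.42), and without the 3 arrays it was 1.15 (2.22-fold, limma adjusted p = 1.23e-05). After OA the wild-type levels were 11.80, 11.39, 11.56 and 11.83. The PPARα-null levels were 11.40 on replicate 1 and 10.17, 10.61 and 11.23 on the others. The groups overlapped by replicate 1 alone. The difference was 0.79 (limma adjusted p = 0.179) with all arrays and 0.97 (1.96-fold, limma adjusted p = 0.000643) without the 3. Without the 3 arrays, 2.15% of all expressed genes were called after EPA and 1.88% after OA in either direction, and Cyp2c65 was the only one of the members. Its probeset, which ends in _s_at, can match related transcripts of subfamily 2C.

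The other genes called after WY14643 differed by less. Cyp2d22, of the drug-metabolising subfamily 2D, read 8.03, 7.99, 8.16 and 7.53 in wild-type and 7.11, 7.40, 6.98 and 7.01 in PPARα-null mice. The lowest wild-type value stood just above the highest PPARα-null value. The difference was 0.80 (SE 0.24) or 1.74-fold (limma adjusted p = 0.038), and the gene's other probeset was at 0.58 (adjusted p = 0.19). This call was lost without wild-type WY14643 replicate 1, 2 or 3 or PPARα-null WY14643 replicate 1, 3 or 4.

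Cyp2j6, an intestinal P450 of subfamily 2J, ran the other way. Its levels were 10.38, 10.54, 10.41 and 10.06 in wild-type and 10.80, 10.80, 10.86 and 10.90 in PPARα-null mice after WY14643. The difference was -0.49 (SE 0.14), 1.4-fold lower in wild-type mice, with a limma adjusted p of 0.0228. On its other probeset it was -0.45 (adjusted p = 0.077), and the call was lost without wild-type WY14643 replicate 4 or PPARα-null WY14643 replicate 3 or 4. Cyp3a13, the Cyp3a enzyme most typical of the mouse intestine, read 12.69, 12.85, 12.72 and 12.68 in wild-type and 13.06, 13.12, 13 and 12.96 in PPARα-null mice. The groups were tight and apart. The difference was -0.30 (SE 0.064) or 1.23-fold (limma adjusted p = 0.00217). The calls for Cyp2c65 and Cyp3a13 held without any single array.

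**Figure D3:**
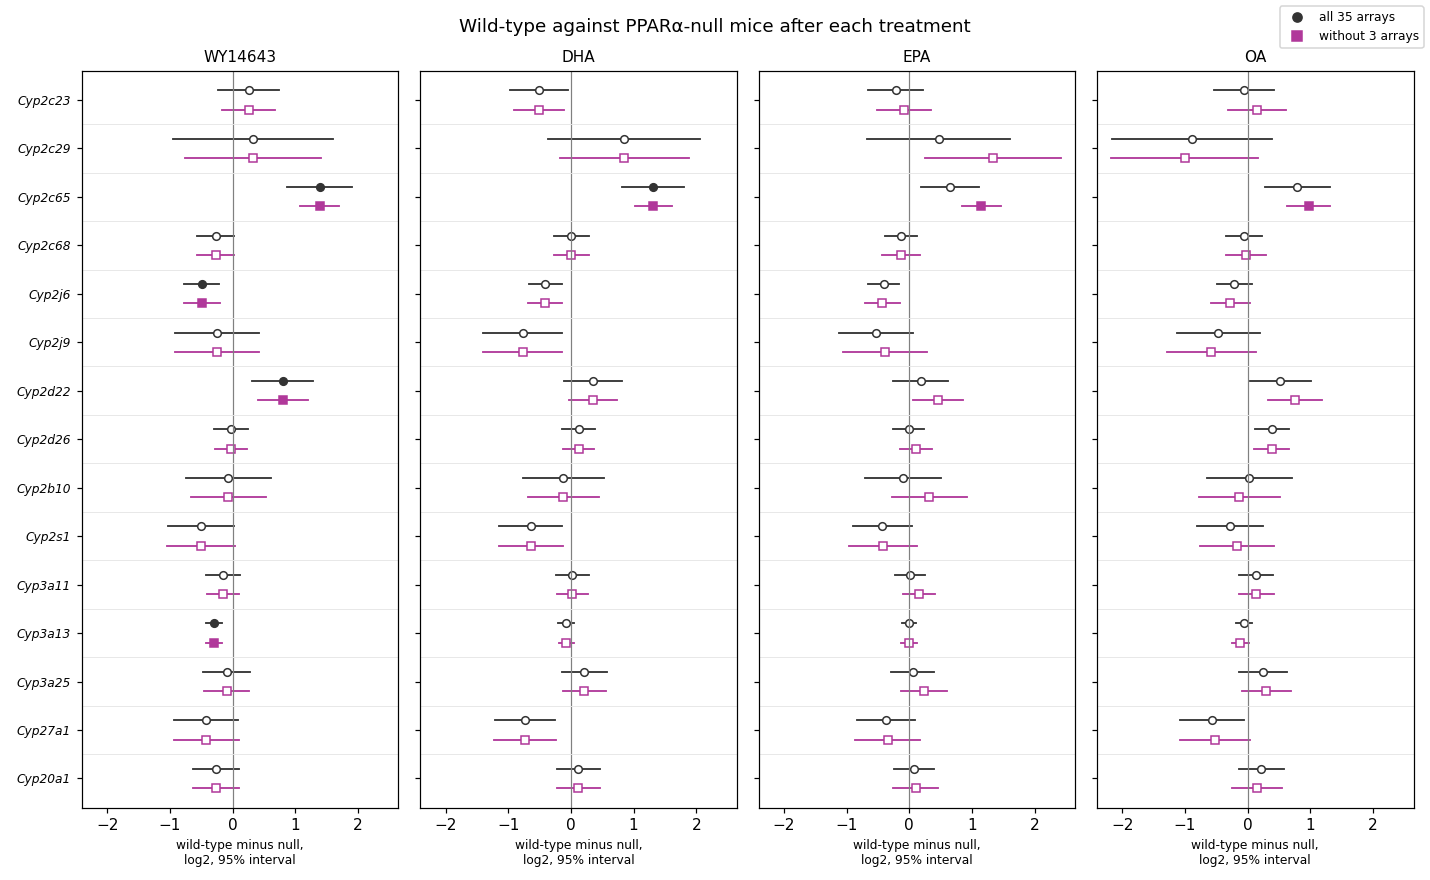
Wild-type minus PPARα-null difference (log2) of the 15 expressed genes under each agonist, with 95% intervals, for all 35 arrays and without the 3 arrays that go against their genotype label, filled where the limma adjusted p was under 0.05. Cyp2c65 lies to the right of 0 under all 4 agonists, at 1.39 after WY14643 and 1.31 after DHA, and its intervals narrow without the 3 arrays.

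With all arrays as labelled, no P450 gene was called after EPA, and over all expressed genes 0% were. By limma 2 of the 15 genes and 1025 of all expressed genes had an unadjusted p under 0.05. Without the 3 arrays 2.15% of all expressed genes were called after EPA, Cyp2c65 among them. Cyp2c29 was then at least 1.997-fold higher in wild-type mice but not called (limma adjusted p = 0.226). The paper lists Cyp2c65, Cyp2c29 and Cyp2d22 as higher in wild-type mice after EPA. Whether the labels of EPA replicate 5 were exchanged between the genotypes was not tested. With all arrays none of the 15 was called after OA either, against 0.533% of all expressed genes. By limma 4 members and 1263 of all expressed genes had an unadjusted p under 0.05 there. Among the differences that missed the threshold, that of Cyp27a1 after DHA was -0.73 (95% interval -1.22 to -0.25, limma adjusted p = 0.06) and that of Cyp2j6 -0.41 (limma adjusted p = 0.054). Cyp2c55, another 2C enzyme of the gut, rose above the limit in wild-type EPA mice only once replicate 5 was left out (mean 5.44). The gene then passed the filter through that group alone and was called higher in wild-type mice after WY14643 (limma adjusted p = 0.0231), as were 4.45% of all expressed genes. Both WY14643 groups lay under the limit (means 4.40 and 2.44), so no size is given for the difference.

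Within a genotype, WY14643 was set against each oil, which compares the synthetic agonist with dietary ones. The 3 comparisons of a genotype share the WY14643 arrays. In wild-type mice 11 of the 15 genes were higher after WY14643 than after OA, against 15.9% of all expressed genes, and 1 was lower, against 17.3%. Against EPA 10 were higher (21.8% of all) and 2 lower (22.8%), and without the 3 arrays again 10 (21%) and 2 (22.4%). Against DHA 7 were higher (19.5%) and 2 lower (20.5%). The median differences of the 15 genes were 0.74, 0.65 and 0.45 (log2) against OA, EPA and DHA, while those of all expressed genes were each -0.01.

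PPARα-null mice gave counts of the same kind. There 9 of the 15 were higher after WY14643 than after OA (17.8% of all), 10 than after EPA (20.5%) and 7 than after DHA (10.6%). None was lower, against 13.1%, 16.7% and 8.85% of all expressed genes, and by limma none was lower at an unadjusted p under 0.05 either. The medians were 0.86, 0.70 and 0.53, beside 0.04, 0.04 and 0.03 for all expressed genes. With the 3 arrays left out, 10, 12 and 9 members were higher, against 17.1%, 18.7% and 11.5% of all. The counts against DHA rested on PPARα-null DHA replicate 4, without which only 1 gene, Cyp2c68, was called. The share of all expressed genes called without that array is not given here. The genes Cyp27a1, Cyp2c23, Cyp2c68, Cyp2d22, Cyp2j6, Cyp2j9 and Cyp2s1 were higher after WY14643 in all 6 comparisons.

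Cyp2j9, an enzyme of arachidonic acid hydroxylation, had the largest difference of these in PPARα-null mice. Its log2 levels there were 6.64, 6.47, 6.94 and 7.35 after WY14643 and 4.67, 5.07, 4.97 and 5.29 after OA. After EPA they were 5.83, 4.56, 6.00, 4.81 and 4.70, and after DHA 5.74, 4.94, 6.44 and 4.81. The WY14643 arrays lay above all others, the nearest being a DHA array at 6.44. The differences were 1.85 against OA (3.6-fold, limma adjusted p = 0.00017), 1.67 against EPA (3.19-fold) and 1.37 against DHA (2.58-fold). Those against OA and EPA were 1.74 and 1.83 without the 3 arrays. In wild-type mice the WY14643 levels were 6.66, 7.07, 6.85 and 5.83, and the OA levels 4.54, 3.98, 4.85 and 4.77. The means of the 3 oil groups lay under the limit. With each oil array under it set to it, the level after WY14643 was at least 3.04-fold higher than after OA, at least 2.98-fold than after EPA and at least 2.95-fold than after DHA. The bound against EPA was 2.96-fold without the 3 arrays.

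Cyp2j6, in the same subfamily, moved less. In wild-type mice it read 9.81, 9.89, 9.80 and 9.54 after OA, all under the WY14643 values given above, and the difference was 0.59 (1.51-fold, limma adjusted p = 0.0015). In PPARα-null mice it read 9.78, 10.18, 9.86 and 10.06 after OA, also without overlap, and the difference was 0.87 (1.83-fold, limma adjusted p = 5.42e-05). The latter was 0.81 without the 3 arrays. On the gene's other probeset the differences were 0.77 and 1.06.

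Cyp27a1 read 9.54, 10.12, 9.94 and 9.52 after WY14643 in wild-type mice. After OA it read 8.66, 8.09, 8.39 and 7.66, after EPA 8.47, 8.03, 8.73, 8.0 and 8.64, and after DHA 8.55, 9.13, 9.11, 8.40 and 8.11. The WY14643 arrays lay above all arrays of the oils. The differences were 1.58 against OA (2.99-fold, limma adjusted p = 2.43e-05), 1.41 against EPA (2.65-fold) and 1.12 against DHA (2.17-fold). That against EPA was 1.47 without the 3 arrays. In PPARα-null mice it read 9.87, 10.13, 10.38 and 10.42 after WY14643 and 8.93, 8.35, 8.45 and 9.35 after OA. These did not overlap, and the difference was 1.43 (2.69-fold, limma adjusted p = 0.000162). Against EPA it was 1.46 (2.74-fold). In the fit without the 3 arrays these were 1.48 and 1.55. Against DHA it was 0.81 (1.75-fold, limma adjusted p = 0.0279), with overlap and with the call lost when any of 5 arrays was left out.

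In subfamily 2C, Cyp2c23 and Cyp2c68 were higher in both genotypes. Cyp2c23, an arachidonic acid epoxygenase, read 7.68, 7.12, 7.78 and 7.84 after WY14643 in wild-type mice and 6.42, 5.91, 5.81, 5.82 and 5.51 after DHA, where it was lowest. That difference was 1.71 (3.28-fold, limma adjusted p = 1.8e-06), and those against OA and EPA were 1.18 each (1.01 against EPA without the 3 arrays). In PPARα-null mice the differences were 0.86 against OA, 0.70 against EPA and 0.95 against DHA, the first 2 of them 1.07 and 0.66 without the 3 arrays. Cyp2c68 read 9.45, 9.31, 9.30 and 9.16 after WY14643 and 8.64, 8.47, 8.57 and 8.57 after OA in wild-type mice. The difference was 0.74 (1.67-fold, limma adjusted p = 0.000229). In PPARα-null mice it was 0.96 (1.94-fold, limma adjusted p = 3.25e-05), with 9.60, 9.64, 9.63 and 9.43 after WY14643 against 8.72, 8.21, 8.76 and 8.79 after OA, and without the 3 arrays it was 0.99.

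For Cyp2c65 a difference between WY14643 and the oils was called in wild-type mice against OA, at 0.90 (1.87-fold, limma adjusted p = 0.0082), and against EPA, at 0.66 (limma adjusted p = 0.0299). The difference against EPA was 0.44 without the 3 arrays (limma adjusted p = 0.0262). With all arrays it was lost without wild-type EPA replicate 5 or wild-type WY14643 replicate 1, 2 or 3. Against DHA it was 0.28 (limma adjusted p = 0.393). In PPARα-null mice the differences were 0.31 against OA, -0.07 against EPA and 0.21 against DHA, none past the threshold, and without the 3 arrays those against OA and EPA were 0.49 (limma adjusted p = 0.0301) and 0.20 (limma adjusted p = 0.349).

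Cyp2d22 and Cyp2s1 completed the genes that were higher in all comparisons. In wild-type mice Cyp2d22 read 7.06, 6.91, 6.66 and 6.81 after OA, under all WY14643 values, a difference of 1.07 (2.09-fold, limma adjusted p = 0.00113). PPARα-null mice read 7.05, 5.75, 6.02 and 6.54 after OA, of which replicate 1 overlapped the WY14643 values, and the difference was 0.79 (1.73-fold, limma adjusted p = 0.0155). Without the 3 arrays the groups did not overlap and it was 1.02 (2.03-fold). Against DHA in PPARα-null mice it was 0.69 (limma adjusted p = 0.0459), a call lost when any of 14 arrays was left out. Cyp2s1, an epithelial P450 that acts on eicosanoids and carcinogens, read 8.84, 8.71, 8.72 and 8.59 after WY14643 and 7.78, 8.09, 7.98 and 7.75 after OA in wild-type mice. The difference was 0.81 (1.76-fold, limma adjusted p = 0.0182), and the call was lost without wild-type OA replicate 4 or wild-type WY14643 replicate 1. The PPARα-null levels were 9.03, 9.22, 9.33 and 9.28 against 8.54, 8.11, 7.65 and 8.45, a difference of 1.03 (2.04-fold, limma adjusted p = 0.00414), or 1.15 without the 3 arrays.

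**Figure D4:**
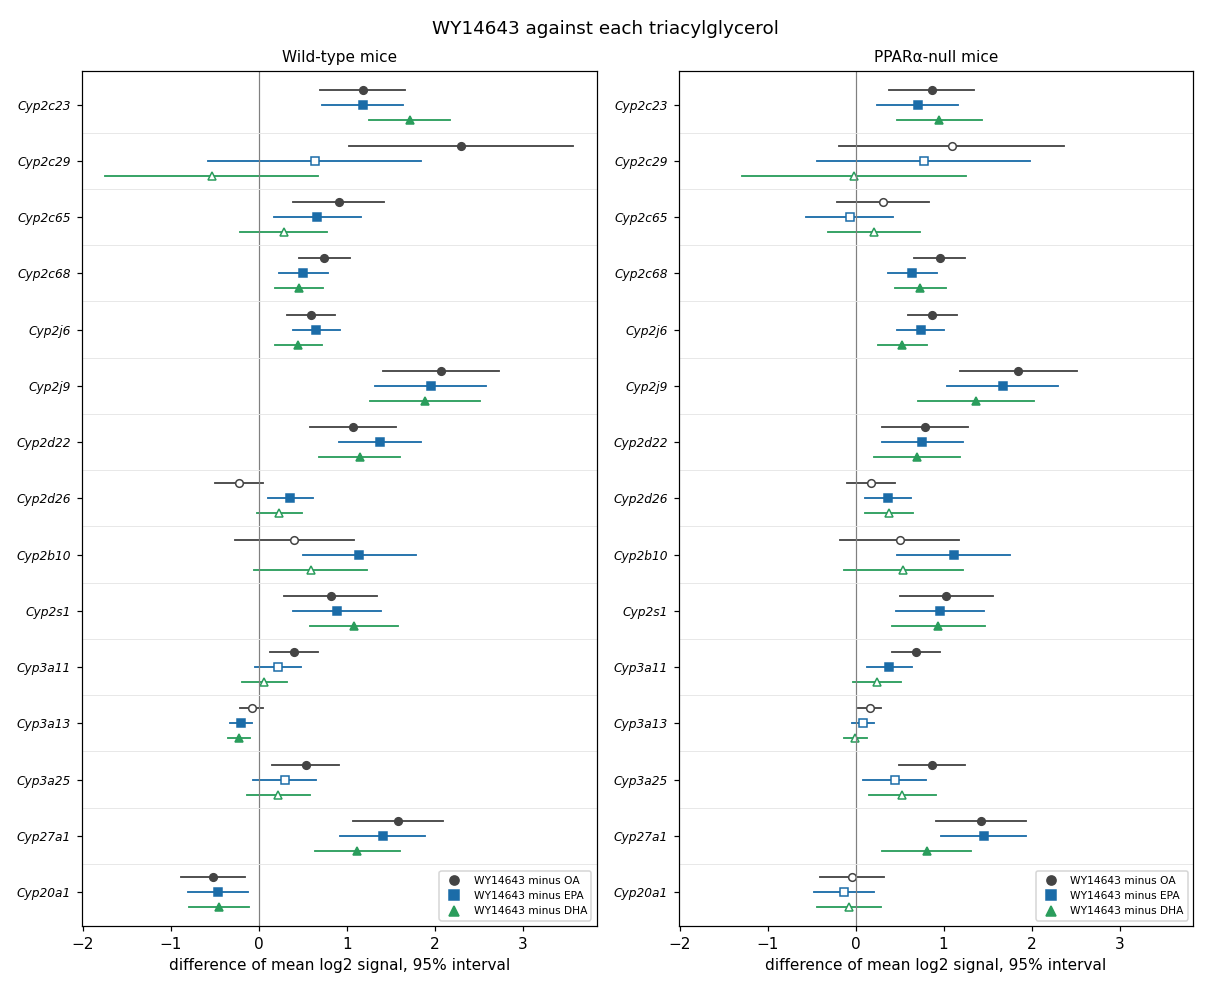
Difference (log2) of the 15 expressed genes between WY14643 and OA, EPA and DHA in wild-type and PPARα-null mice, with 95% intervals and filled points where the limma adjusted p was under 0.05. Cyp27a1, Cyp2c23, Cyp2c68, Cyp2d22, Cyp2j6, Cyp2j9 and Cyp2s1 are filled to the right of 0 in all 6 comparisons, and Cyp20a1 is filled to the left of 0 in wild-type mice, at -0.53, -0.47 and -0.46.

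Of the drug-metabolising Cyp3a genes, Cyp3a11 and Cyp3a25 were higher after WY14643 than after OA in both genotypes, and Cyp3a13 was not called. Cyp3a11, the major Cyp3a enzyme of mouse liver, read 12.61, 12.60, 12.66 and 12.50 after WY14643 and 12.40, 11.94, 12.05 and 12.40 after OA in wild-type mice, a difference of 0.40 (1.32-fold, limma adjusted p = 0.025). PPARα-null mice had 12.64, 12.73, 12.85 and 12.78 against 12.07, 11.69, 12.03 and 12.46, a difference of 0.69 (1.61-fold, limma adjusted p = 0.000421). Neither pair of groups overlapped. Cyp3a25 read 12.09, 11.89, 12.13 and 12.06 against 11.79, 11.10, 11.46 and 11.70 in wild-type mice, a difference of 0.53 (1.45-fold, limma adjusted p = 0.0311). In PPARα-null mice the difference was 0.87 (1.82-fold, limma adjusted p = 0.00104). The PPARα-null differences without the 3 arrays were 0.69 for Cyp3a11 and 0.92 for Cyp3a25. Both wild-type calls were lost when any of 5 arrays was left out. Against EPA, Cyp3a11 was called in PPARα-null mice at 0.38 (limma adjusted p = 0.0218), a call lost when any of 3 arrays was left out. Without the 3 arrays that go against their labels it was 0.47 (limma adjusted p = 0.00589), and Cyp3a25 was called too, at 0.54 (limma adjusted p = 0.0232).

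Cyp3a13 behaved apart from these. In wild-type mice it was lower after WY14643 than after EPA, by -0.21 (limma adjusted p = 0.00724), and than after DHA, by -0.23 (limma adjusted p = 0.00425), where it read 12.95, 12.94, 13.05, 12.96 and 12.93. Against OA the difference was -0.08 and did not pass the threshold. In PPARα-null mice the differences were 0.16 against OA (limma adjusted p = 0.068), 0.09 against EPA and -0.01 against DHA. The wild-type difference against EPA stayed at -0.21 without the 3 arrays, and the PPARα-null one against OA was 0.10.

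Cyp2b10, a target of the nuclear receptor CAR, was called against EPA in both genotypes. In wild-type mice the differences against OA and DHA were 0.40 and 0.59 and did not pass the threshold. There it read 9.46, 10.06, 9.91 and 9.66 after WY14643 and 8.75, 8.80, 9.01, 8.56 and 8.04 after EPA. The groups did not overlap, and the difference was 1.14 (2.2-fold, limma adjusted p = 0.00486), with the gene's 3 probesets all called, and 0.99 without the 3 arrays. In PPARα-null mice it was 1.11 (2.16-fold, limma adjusted p = 0.0079), with EPA replicate 5 at 9.80 among the WY14643 values and the others at 8.53, 8.60, 8.85 and 7.89. Without the 3 arrays the groups did not overlap and it was 1.38 (2.6-fold, limma adjusted p = 0.000953). Cyp20a1, an orphan P450 with no settled substrate, was lower after WY14643 in wild-type mice. It read 6.85, 7.01, 7.30 and 7.05 after WY14643 and 7.66, 7.57, 7.65 and 7.43 after OA, a difference of -0.53 (1.44-fold, limma adjusted p = 0.0258). This call was lost when any of 4 arrays was left out, and in PPARα-null mice the differences lay between -0.13 and -0.04. Against EPA the wild-type difference was -0.47 (limma adjusted p = 0.028), or -0.54 without the 3 arrays.

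The oils were also set against each other. In wild-type mice Cyp2c29, an epoxygenase that also oxidises drugs, read 7.42, 7.82, 7.18, 6.10 and 6.38 after DHA and 4.49, 4.23, 3.08 and 4.78 after OA. The OA values all lay under the limit and the groups did not overlap. The level after DHA was at least 3.95-fold higher (limma adjusted p = 0.00316), where 1.39% of all expressed genes were higher and 3.14% lower after DHA. After WY14643 Cyp2c29 read 5.78, 7.07, 6.82 and 6.10, at least 2.72-fold higher than after OA (limma adjusted p = 0.00621). After EPA it read 5.66, 5.81, 6.23 and 6.53 and, on replicate 5, 4.81. The level was at least 1.75-fold that after OA but not called (limma adjusted p = 0.098), and without the 3 arrays it was at least 2.08-fold higher (limma adjusted p = 0.0286), where 2.99% of all expressed genes were higher after EPA. In PPARα-null mice the spread was wide, with 4.67, 3.80, 4.95 and 6.70 after OA and 5.72, 4.68, 6.40 and 7.73 after DHA, and no difference passed the threshold with all arrays. In the fit without the 3 arrays its level there after WY14643 was at least 2.08-fold higher than after EPA (limma adjusted p = 0.0482), with overlap.

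Cyp2d26 was lower after the fish-oil acids than after OA in wild-type mice. It read 12.38, 12.19, 12.31 and 12.53 after OA and 11.95, 11.59, 12.02, 11.59 and 11.70 after EPA. These did not overlap, and the difference was -0.59 (SE 0.13, limma adjusted p = 0.00291), or -0.57 without the 3 arrays, where 3.5% of all expressed genes were higher and 4.25% lower after EPA. After DHA it read 11.97, 12.19, 11.93, 11.77 and 11.62, of which the highest touched the lowest OA value. That difference was -0.46 (SE 0.13, limma adjusted p = 0.0339), a call lost when any of 6 arrays was left out. Against WY14643, Cyp2d26 was lower after EPA in both genotypes, with differences of 0.36 in wild-type (limma adjusted p = 0.0249) and 0.37 in PPARα-null mice (limma adjusted p = 0.026). The wild-type call was lost when any of 3 arrays was left out and the PPARα-null call when any of 4 was. In the fit without the 3 arrays that go against their labels, the differences were 0.34 (limma adjusted p = 0.0349) and 0.47 (limma adjusted p = 0.0068).

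No member was called between EPA and DHA in either genotype by limma, where 0.812% (wild-type) and 0.846% (PPARα-null) of all expressed genes were, in either direction. In wild-type mice 2 members and 1419 of all expressed genes had an unadjusted p under 0.05, and in PPARα-null mice 1 and 1026. In PPARα-null mice none was called between EPA and OA or between DHA and OA, against 2.99% and 1.34% of all. An unadjusted p under 0.05 occurred there for 4 members and 1589 of all between EPA and OA. Between DHA and OA it occurred for 4 and 1394. Without the 3 arrays Cyp2b10 was lower after EPA than after OA there, by -1.14 (limma adjusted p = 0.0376), as were 1.87% of all.

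Whether an agonist difference itself depended on the genotype was tested with an interaction for each of the 6 pairs of agonists, and 0 of the 15 genes were called in any by limma. Over all expressed genes 1.33% were called for WY14643 and OA, 1.41% for WY14643 and EPA, 0.626% for WY14643 and DHA and at most 0.0116% for the pairs of oils. Unadjusted p-values under 0.05 occurred for 2 members each in the 3 pairs with WY14643 and for 1 for EPA and OA (Cyp2d26), and for none in the other pairs. Over all expressed genes the numbers were 983 (WY14643 and OA), 758 (WY14643 and EPA), 936 (WY14643 and DHA) and 661 (EPA and OA). Cyp3a13 had the smallest adjusted p, 0.1, for WY14643 and EPA, with an interaction of -0.30 (95% interval -0.47 to -0.12). For Cyp2c65 the interaction of WY14643 and EPA was 0.73 (95% interval 0.03 to 1.43, limma adjusted p = 0.658), and without the 3 arrays 0.24. The intervals had a median reach of 0.632 to 0.685 (log2) to either side of the estimate over the 15 genes. A gene called in one genotype and not in the other is therefore not shown to respond differently.

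Genes that work with the P450 enzymes were counted as fixed lists. Of 8 redox partners, which pass electrons to P450 enzymes or help them do so, 5 were found by a single gene symbol, and all 5 were expressed. Por, the reductase of the microsomal enzymes, Fdxr and Fdx1l had no probeset under that symbol alone and were not examined. None was called between the genotypes. After WY14643 against OA, Cyb5r3 (0.39), Fdx1 (0.40) and Pgrmc1 (0.28) were higher in wild-type mice and none lower, which is 3 of 5 beside the 15.9% of all expressed genes that were higher. In PPARα-null mice Cyb5b (0.52), Cyb5r3 (0.57) and Fdx1 (0.33) were, again 3 of 5, beside 17.8% of all. These were 0.58, 0.61 and 0.32 without the 3 arrays. The median difference between WY14643 and OA over the list was 0.28 in wild-type and 0.33 in PPARα-null mice, beside -0.01 and 0.04 for all expressed genes. Fdx1 is the ferredoxin that serves mitochondrial P450 enzymes such as Cyp27a1.

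Of the 4 epoxide hydrolases 2 were expressed, and both were higher in wild-type mice after WY14643, beside 4.19% of all expressed genes. Ephx1, which hydrolyses xenobiotic epoxides, was higher in wild-type mice by 0.79 (limma adjusted p = 0.0209), and Ephx2, which hydrolyses fatty acid epoxides, by 0.61 (limma adjusted p = 0.0109). After DHA the difference of Ephx1 was 0.90 (limma adjusted p = 0.00717), where 4.42% of all expressed genes were higher in wild-type mice. Without the 3 arrays Ephx1 was also called higher in wild-type mice after EPA, where 2.15% of all were called in either direction. Against OA, WY14643 left Ephx1 higher by 1.03 in wild-type and 0.76 in PPARα-null mice, and Ephx2 higher by 0.46 in wild-type mice. Over all expressed genes 15.9% were higher in wild-type and 17.8% in PPARα-null mice. The PPARα-null difference of Ephx1 was 0.91 without the 3 arrays. Ephx2 was lower after EPA than after OA in both genotypes, by -0.63 and -0.53, or -0.56 and -0.59 without the 3 arrays. There 4.25% of all expressed genes were lower in wild-type mice, and 2.99% were called in either direction in PPARα-null mice.

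Of the 15 regulators of P450 genes 13 were expressed. After WY14643, Nr1h4, the bile acid receptor FXR, exceeded its PPARα-null level in wild-type mice by 0.98 (limma adjusted p = 2.42e-05), and Nr0b2, its target SHP, by 1.33 (limma adjusted p = 0.0153). Against OA in wild-type mice 4 were higher after WY14643 (Nr1i2, the xenobiotic receptor PXR, by 0.92, Vdr by 1.28, Nr1h4 by 0.89 and Rxrb by 0.51) and Hnf4a was lower, by -0.31, beside 15.9% and 17.3% of all expressed genes. In PPARα-null mice 5 were higher (Vdr by 0.83, Rxra by 0.41, Rxrb by 0.41, Nr3c1 by 0.39 and Nfe2l2 by 0.71) and none lower, beside 17.8% and 13.1% of all. All 5 were called without the 3 arrays, between 0.40 and 0.86. In wild-type mice Nr1i2 and Nr1h4 were higher after DHA than after OA, where 1.39% of all expressed genes were. After EPA, with all arrays, Nr1h4 was higher and Nr0b2 lower than after OA there, beside 3.5% and 4.25% of all. The interaction of WY14643 and OA was called for Nr1h4 alone, at 1.18 (limma adjusted p = 0.00177), or 1.19 without the 3 arrays (limma adjusted p = 0.00232). That of WY14643 and EPA was also called for Nr1h4 with all arrays, but not without the 3 (limma adjusted p = 0.0527). Of the genes of other families that answer to the aryl hydrocarbon receptor, as family 1 does, 2 were expressed. Nqo1 exceeded its PPARα-null level in wild-type mice given DHA by 0.74 (limma adjusted p = 0.00241), and Tiparp was higher after WY14643 than after OA in wild-type mice by 0.51. Without the 3 arrays Nqo1 also exceeded its PPARα-null level in wild-type mice given EPA. In that fit it was higher after EPA than after OA in wild-type mice too. The 2 genes did not move together. In wild-type mice Nqo1 was lower and Tiparp higher after WY14643 than after EPA and DHA, and Nqo1 was higher after DHA than after OA. Tiparp was not called against EPA without the 3 arrays. The P450 genes of another name, Tbxas1 and Ptgis, were not expressed.

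Markers of gut regions and of other cell types moved with some of these comparisons. In the comparison of the genotypes after WY14643, which gave the 4 P450 calls, 2 of the 3 proximal markers (Pdx1 and Cybrd1) and 3 of the 5 enteroendocrine markers (Chga, Chgb and Gip) were lower in wild-type mice. Over all expressed genes 3.36% were lower there. The summed linear levels were 368.9 to 571.6 against 588.7 to 770 for the proximal markers and 5560 to 7811 against 7846 to 9124 for the enteroendocrine ones. Of the enterocyte markers Fabp1 and Fabp2, fatty acid binding proteins, were higher in wild-type mice after WY14643 and after DHA, and Apoa1, Lct and Anpep were lower after DHA. Without the 3 arrays Fabp1, Fabp2 and the macrophage marker Cd68 were also higher in wild-type mice after EPA, and Cybrd1 was lower. The Paneth cell marker Lyz1 was higher in wild-type mice after OA, with and without the 3 arrays.

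Between WY14643 and the oils, both ileal markers, Fabp6 and Slc10a2, were lower after WY14643 than after OA and EPA in both genotypes, and than after DHA in PPARα-null mice. Over all expressed genes 17.3% and 22.8% were lower against OA and EPA in wild-type mice. In PPARα-null mice the shares were 13.1%, 16.7% and 8.85% against OA, EPA and DHA. The summed levels of the ileal markers were 9006 to 11480 against 13030 to 16230 after OA in wild-type mice and 6617 to 11370 against 10450 to 12820 in PPARα-null mice, and without the 3 arrays only Slc10a2 was called against OA in the latter. In wild-type mice Pdx1 and the proliferation markers Mki67 and Top2a were lower after WY14643 than after OA. In PPARα-null mice Top2a was lower there, and Chga, Chgb and Gip were higher, with enteroendocrine sums of 7846 to 9124 against 6071 to 7222. Chgb was not called without the 3 arrays, where the OA sums lay between 6453 and 7222. Lct was higher after WY14643 than after OA in both genotypes, and in PPARα-null mice Vil1, the Paneth cell marker Lyz1 and the goblet cell marker Tff3 were higher there and Fabp1 and Fabp2 were lower. Tff3 was not called in the fit without the 3 arrays.

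Against EPA and DHA, Pdx1 and Spink4, a goblet cell marker, were lower after WY14643 in wild-type mice, and Spink4 was also lower against EPA in PPARα-null mice. Top2a was lower in wild-type mice against both and in PPARα-null mice against EPA, the latter with all arrays alone. Against DHA in wild-type mice Mki67 was also lower, while Olfm4, another crypt marker, was higher. The smooth muscle marker Actg2 and the macrophage marker Cd68 were lower against EPA in wild-type mice. Another macrophage marker, Adgre1, was higher against DHA there. In wild-type mice Apoa1 and Lct were higher after WY14643 against both, and Apoa4 and Anpep against DHA. In PPARα-null mice Lct was higher against both, Apoa1 and the hepatocyte marker Ttr against EPA, and Cybrd1, Gip and Sct against DHA. Fabp1 was lower against EPA in PPARα-null mice. Between the oils in wild-type mice, Apoa4 was lower after EPA than after OA, and Apoa4 and Anpep were lower after DHA than after OA. Lyz1 was higher after EPA than after OA in PPARα-null mice. Without the 3 arrays Cd68 was also higher in wild-type mice after EPA than after OA and DHA.

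The 5 expressed markers of pancreatic acinar cells were all lower after WY14643 than after OA in PPARα-null mice, with sums of 1444 to 8918 against 35160 to 71290, or 56540 to 71290 without OA replicate 1. Over all expressed genes 13.1% were lower in that comparison. In wild-type mice the sums were 5299 to 23820 and 9992 to 44600. The 3′ minus 5′ difference of the actin control probesets, a sign of RNA quality, lay between 0.71 and 1.25 (log2) on the WY14643 arrays and between 0.47 and 1.09 on the others. The part of these markers and of RNA quality in the P450 differences was not tested.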

How the data were processed

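RNA of the small intestine was measured on Affymetrix mouse genome arrays. The authors deposited log2 expression values computed with GCRMA, per the submitters' processing notes, a method that adjusts for background by probe sequence, puts arrays on a common scale and gives 1 value a probeset; its version and the probe definition were not given in the sources used here. The values were used as deposited, without the 64 control probesets. Of the other probesets 34945 had 1 gene symbol, 932 had several, which were not used as members, and 9160 had none. With arrays the number of mice limits the precision. Where 1 of the groups lay at or under the limit of 32, the fold is given as "at least", against that group's mean with each array under the limit set to it, and where both did, no fold is given.

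A model of 8 group means was fitted to all 35 arrays and all non-control probesets with limma 3.58.1 in R 4.3.3, with an intensity trend in the empirical Bayes step. For each of 22 contrasts the Benjamini-Hochberg adjustment ran over the 15384 expressed probesets. To be called, a gene needed at least 1 expressed probeset with an adjusted p under 0.05. Values are those of the expressed probeset of highest mean, with other probesets where they differ in call. Standard errors and 95% intervals are those of the contrast, and replicates are mice. The script was tested on simulated data. Promoter sequences came from RefSeq.

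All expressed members were named, and members that were not expressed only where nearest to the limit. The members, the lists of related genes and markers and the 3 arrays taken to go against their labels were chosen with earlier results of these data known. The alternatives tried were no filter, a limit of log2 6, only expressed probesets in the fit, log2 taken after adding 32 to the linear value, quantile normalization, no intensity trend, only the groups compared, no arrays that go against their labels, 1 probeset per gene, leaving out probesets whose names end in _x_at or _s_at, a replicate block, an unadjusted p under 0.01, and leaving out each array in turn.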

Additional observations from a re-analysis of the deposited data

Results flagged for a closer look

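In 10 of 120 combinations of an expressed gene and a group, 1 array stood far from the others of its group by Dixon's ratio, where chance gives about 1 in 20. Of these, 4 fell on the arrays that go against their genotype label. Cyp2c65 read 12.31 on PPARα-null EPA replicate 5 (others 10.85 to 11.08) and 10.98 on wild-type EPA replicate 5 (others 11.90 to 12.23). Cyp2c29 read 7.80 on PPARα-null EPA replicate 5 (others 4.20 to 5.18), and Cyp2d22 read 6.02 on wild-type EPA replicate 5 (others 6.59 to 6.79).

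The other 6 lay on other arrays. Cyp20a1 read 7.05 on PPARα-null WY14643 replicate 2 (others 7.39 to 7.42), and Cyp2d26 read 12.41 on the same array (others 12.04 to 12.09). Cyp2c68 read 9.43 on PPARα-null WY14643 replicate 4 (others 9.60 to 9.64) and 8.21 on PPARα-null OA replicate 2 (others 8.72 to 8.79). Cyp2j6 read 10.79 on PPARα-null DHA replicate 3 (others 10.10 to 10.20), and Cyp3a13 read 13.05 on wild-type DHA replicate 3 (others 12.93 to 12.96). The causes were not tested.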

How the results depend on the processing

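Of 83 called differences of single probesets, 58 kept their call whichever array was left out, and in no alternative run did 1 change direction. Counts of called P450 genes moved as follows, and the cause was not tested. For runs other than the fit without the 3 arrays, the share of all expressed genes called is not given here. A count that moved in those runs may have moved with that share. With no filter, more probesets were adjusted over and 14 of the 83 calls were lost, giving 2 genes for genotype after WY14643, 2 for EPA against OA and 1 for DHA against OA in wild-type mice. Without the 3 arrays that go against their labels the counts were 1 for genotype after EPA, 1 after OA, 3 for EPA against OA in wild-type and 1 in PPARα-null mice. For genotype after DHA a limit of log2 6 gave 2, quantile normalization 2, and no _x_at or _s_at probesets 0, since that of Cyp2c65 ends so. With only the groups compared, EPA against OA in wild-type mice gave 3, and with no intensity trend DHA against OA gave 1. At an unadjusted p under 0.01, genotype gave 2 after EPA, 3 after DHA and 2 after OA, EPA against OA gave 2 in wild-type mice, DHA against OA 2 in PPARα-null mice, and the interaction of WY14643 and EPA 1. Leaving out 1 array in turn gave 2 to 5 genes for genotype after WY14643 (2 without PPARα-null WY14643 replicate 3 or 4), 0 to 1 after EPA (1 without PPARα-null EPA replicate 5), 1 to 4 after DHA (4 without wild-type DHA replicate 2) and 0 to 0 after OA. In wild-type mice WY14643 gave 8 to 12 against OA (8 without WY14643 replicate 1), 9 to 12 against EPA and 8 to 10 against DHA, EPA against OA 1 to 2, DHA against OA 1 to 2 and EPA against DHA 0 to 0. In PPARα-null mice the ranges were 9 to 10, 8 to 12 and 1 to 9 (1 without DHA replicate 4) for WY14643 against OA, EPA and DHA, 0 to 0 for EPA against OA, 0 to 1 for DHA against OA and 0 to 0 for EPA against DHA. The interaction of WY14643 and EPA gave 0 to 1 (1 without wild-type EPA replicate 1) and the others 0 to 0. Replicate numbers did not pair the mice, with correlations of deviations between -0.443 and 0.552 over 17 same-numbered pairs, 6 of them over 0.1. With the replicate number as a block 0 of the 83 calls were lost.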
